A study of Mus musculus with 4 samples.

Results

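The surface epidermis spots were the 300 spots with the strongest signal of 5 genes of stratifying skin among 5901 tissue-covered spots of embryonic mouse heads. A spot is a circle of a spatial transcriptomics slide that holds a small region of tissue and can contain several cells of different types. Spots were ranked by the mean over Krt1, Krt10, Krtdap, Dmkn and Lor of log2(1 + UMIs per 10000 UMIs of the spot), among spots with at least 2000 UMIs (unique molecular identifiers, each standing for 1 captured molecule). The last spot inside scored 2.323 and the first spot outside scored 2.322, with a median of 2.80 over the epidermis spots and 0.397 over all spots, so the limit cut a continuous range.

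Heads of wild-type C57BL/6J embryos, timed by vaginal plug, had been fixed in formalin, embedded in paraffin and cut in coronal sections at the level of the palate at embryonic day 14.5 (E14.5) and 15.5 (E15.5). Each stage had 2 capture areas, called here by their labels replicate 1, with 1 section, and replicate 2,3,4, with 3 sections in 1 library. No group carried an allele or a treatment. Because sections shared a library, the capture area was the sample (n = 2 per stage), and p-values measure the spread between capture areas only. The epidermis spots numbered 14 of 859 in E14.5 replicate 1, 40 of 2104 in E14.5 replicate 2,3,4, 109 of 988 in E15.5 replicate 1 and 137 of 1950 in E15.5 replicate 2,3,4.

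Depth differed widely. The summed UMIs of the epidermis spots were 102423 in E14.5 replicate 1, 1440554 in E14.5 replicate 2,3,4, 5735697 in E15.5 replicate 1 and 4861850 in E15.5 replicate 2,3,4. Median UMIs of epidermis spots were below those of other spots in each area and ranged from 6748 to 50654. The areas shared between 540 and 1388 spot barcodes, which name array positions and not cells.

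The epidermis is a layered epithelium in which dividing basal cells, marked by Krt5 and Krt14, give rise to suprabasal cells that switch to Krt1 and Krt10. Cells of the upper layers then cross-link loricrin (Lor) and related proteins into a cornified envelope and fill the space between cells with lipids. In the mouse embryo these layers form in the days before birth, under a transient outer sheet called periderm.

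The 5 genes lie on 4 chromosomes, given here by the GENCODE M21 annotation of GRCm38. Krt1, the type II keratin of suprabasal cells, spans chr15:101845426-101850794 on the minus strand, and Krt10, its type I partner, spans chr11:99385254-99389364 on the minus strand. Krtdap (chr7:30787896-30791097, plus strand) and Dmkn (chr7:30763756-30781063, plus strand) encode secreted proteins of differentiating keratinocytes and are neighbours of Sbsn (chr7:30751471-30756134, plus strand), which encodes suprabasin. Lor spans chr3:92080271-92083142 on the minus strand, inside the epidermal differentiation complex, a cluster of cornified envelope genes.

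Promoter stretches of 4 of these genes and of Sbsn are shown because these genes were high in the same spots, and shared motifs can be read from the letters. Each runs from 250 bases before to 50 bases after the start site in RefSeq on GRCm38.p6, 5′ to 3′ in the direction of transcription, and capitals mark matches to TGANTCA, the AP-1 motif, or TATAAA, the element bound by the TATA-binding protein, on either strand. The stretches are chr11:99389315-99389614, minus strand (Krt10), chr7:30787655-30787954, plus strand (Krtdap), chr7:30763506-30763805, plus strand (Dmkn, the first of 3 starts), chr3:92083093-92083392, minus strand (Lor) and chr7:30751221-30751520, plus strand (Sbsn).
Krt10: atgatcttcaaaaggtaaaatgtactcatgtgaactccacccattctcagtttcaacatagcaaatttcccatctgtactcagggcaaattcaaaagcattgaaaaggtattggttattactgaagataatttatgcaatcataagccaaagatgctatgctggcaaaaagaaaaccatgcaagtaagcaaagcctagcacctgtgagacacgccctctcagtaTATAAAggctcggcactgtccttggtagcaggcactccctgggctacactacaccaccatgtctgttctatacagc
Krtdap: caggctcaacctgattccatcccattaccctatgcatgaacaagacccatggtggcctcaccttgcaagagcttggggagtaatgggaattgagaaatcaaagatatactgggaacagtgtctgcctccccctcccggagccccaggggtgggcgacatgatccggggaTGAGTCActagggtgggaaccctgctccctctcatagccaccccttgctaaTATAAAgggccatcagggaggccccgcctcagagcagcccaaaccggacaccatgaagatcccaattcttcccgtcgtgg
Dmkn: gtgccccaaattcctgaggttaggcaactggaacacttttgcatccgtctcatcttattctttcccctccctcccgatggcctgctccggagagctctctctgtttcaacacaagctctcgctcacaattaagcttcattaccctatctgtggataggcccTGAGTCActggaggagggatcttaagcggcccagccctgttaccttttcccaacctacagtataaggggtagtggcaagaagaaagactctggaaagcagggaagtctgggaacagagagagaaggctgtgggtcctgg
Lor: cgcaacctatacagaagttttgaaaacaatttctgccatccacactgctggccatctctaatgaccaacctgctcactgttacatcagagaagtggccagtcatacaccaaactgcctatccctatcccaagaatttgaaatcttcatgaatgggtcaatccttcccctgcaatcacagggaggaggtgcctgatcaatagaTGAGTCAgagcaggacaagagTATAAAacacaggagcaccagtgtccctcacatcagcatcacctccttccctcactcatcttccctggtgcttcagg
Sbsn: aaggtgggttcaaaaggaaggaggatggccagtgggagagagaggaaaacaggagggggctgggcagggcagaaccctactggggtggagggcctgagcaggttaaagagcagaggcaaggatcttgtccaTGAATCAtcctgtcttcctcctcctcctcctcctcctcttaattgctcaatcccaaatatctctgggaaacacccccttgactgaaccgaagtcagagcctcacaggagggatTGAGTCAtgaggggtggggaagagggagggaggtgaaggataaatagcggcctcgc
TGANTCA occurred in the stretches of Krtdap (at -81 from the start site), Dmkn (at -89), Lor (at -48) and Sbsn (2 matches), and its letters were not in that of Krt10. Of 32544 promoter stretches of the same length, 7.79% held TGANTCA and 13.6% held TATAAA, which occurred in those of Krt10 (at -26), Krtdap (at -30) and Lor (at -27). A match describes the letters and shows no binding. Krt1 is named only.

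Epidermis spots lay at the edge of the tissue more often than other spots did. A spot was at the edge when at least 1 of its 6 neighbouring array positions held no tissue. Of the epidermis spots, 50% in E14.5 replicate 1, 100% in E14.5 replicate 2,3,4, 58.7% in E15.5 replicate 1 and 81.0% in E15.5 replicate 2,3,4 were edge spots, against 16.4%, 26.5%, 18.3% and 34.6% of the other spots. The difference was 48.5 ± 17.5 percentage points (SD, n = 4 areas) and was positive in 4 of 4 areas (exact two-sided sign-flip permutation test, p = 0.12, the smallest that 4 areas allow). Position had not entered the choice of spots.

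**Figure D1:**
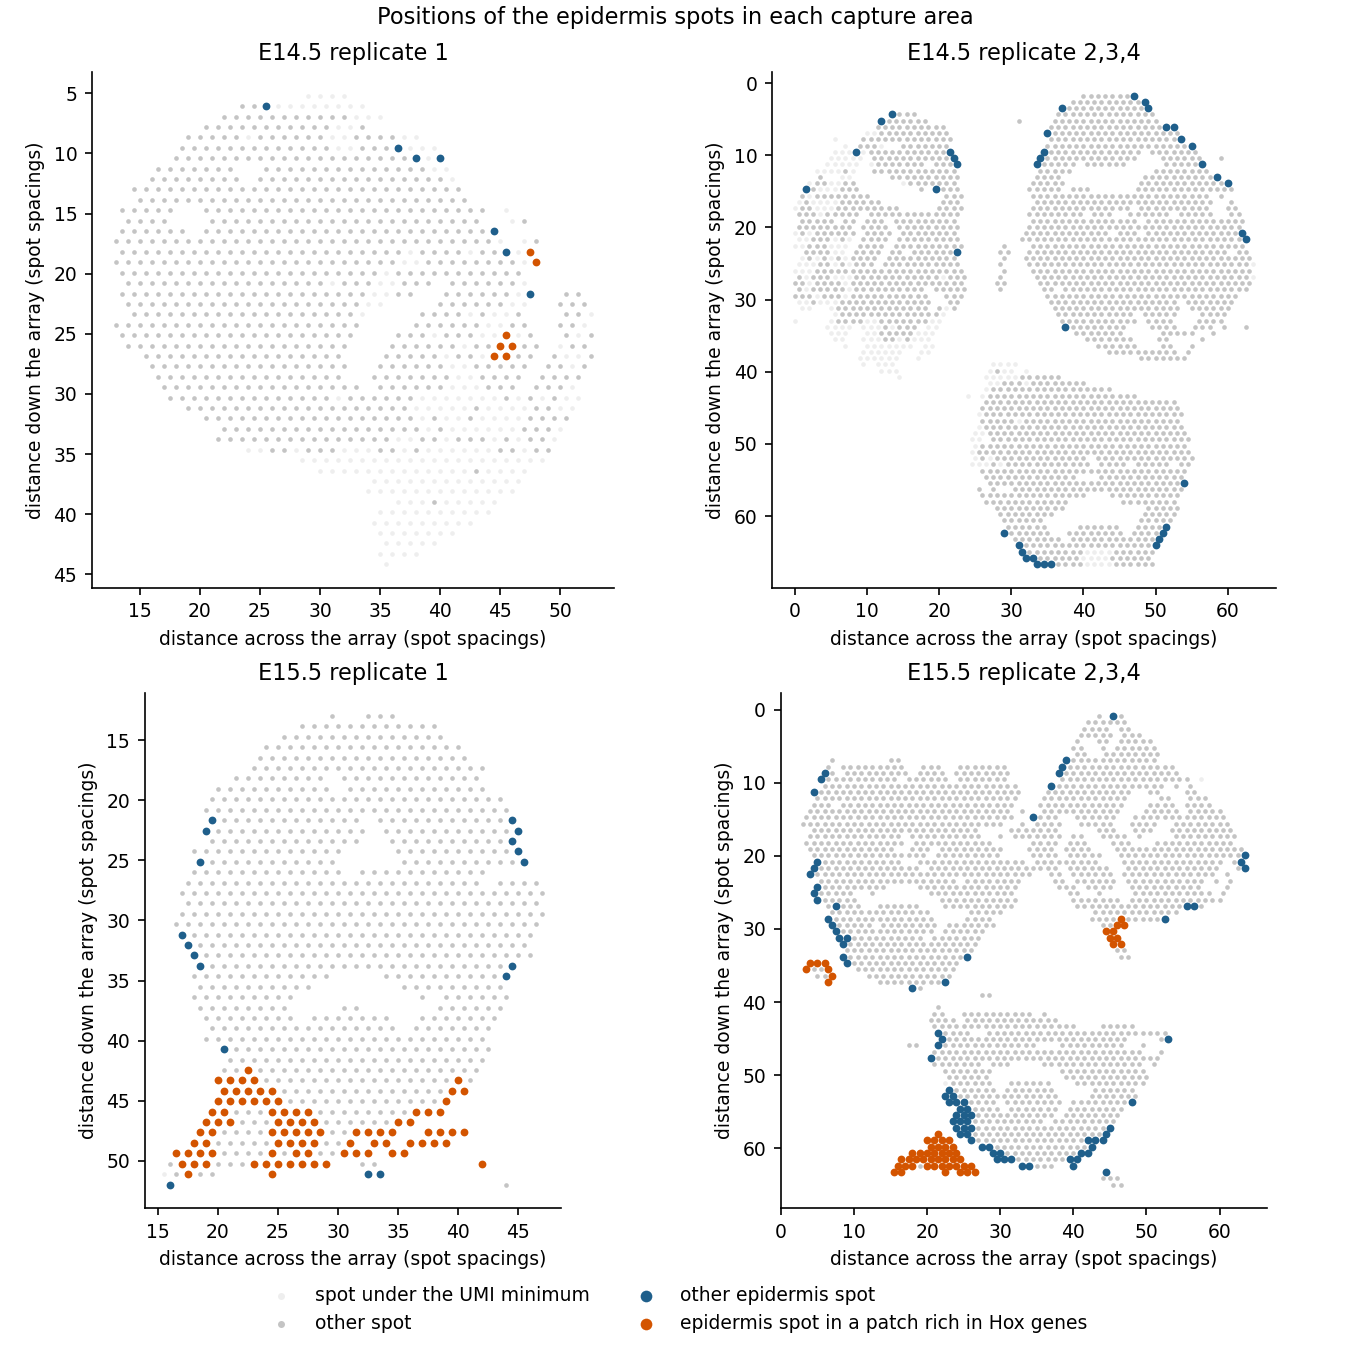
Positions of spots on the array in each capture area, with both axes as distances in spot spacings; grey points are other spots and coloured points the 300 epidermis spots. Most coloured points follow the tissue outline, and orange marks the 155 epidermis spots in patches rich in Hox genes, 91 of them in E15.5 replicate 1 and 57 in E15.5 replicate 2,3,4.

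Part of this tissue stood apart by its Hox genes, which mark position along the body axis and in the limbs. After the data had been seen, touching epidermis spots were joined into patches, and a patch was called rich in Hox genes when Hoxc4, Hoxc5, Hoxc6, Hoxc8, Hoxc9, Hoxc10, Hoxa9, Hoxa10 and Hoxa11 together reached 200 UMIs per 1000000 UMIs (CPM) and 3 UMIs. Such patches held 7 of 14 epidermis spots in E14.5 replicate 1, 0 of 40 in E14.5 replicate 2,3,4, 91 of 109 in E15.5 replicate 1 and 57 of 137 in E15.5 replicate 2,3,4. Sections were outlined by rule. Pieces of at least 100 touching tissue spots were taken as sections, and the largest piece was divided where pieces were too few. In E15.5 replicate 2,3,4, 49 epidermis spots lay in smaller, detached pieces of tissue outside its 3 sections. These were rich patches of 41 and 7 spots and 1 single spot that was not rich. The other rich patch of that area, of 9 spots, lay in a section. In E15.5 replicate 1 the rich patches of 61 and 29 spots, with 18 and 27 edge spots, lay in its section, and 1 rich single spot lay outside it.

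Among patches of at least 3 spots, the 9 genes summed to 283 to 506 CPM in the rich patches and to at most 92.8 CPM in the rest. These genes had defined the rich patches, so a split follows from the cut. Smaller patches lay in the gap. A patch of 2 spots in E15.5 replicate 2,3,4 was at 166 CPM, and the rich single spot of E15.5 replicate 1 was at 217 CPM. A single spot of E14.5 replicate 1 was at 251 CPM from 2 UMIs and was not called rich. In the other tissue they summed to 8.70, 3.20, 17.9 and 6.19 CPM, in the order E14.5 replicate 1, E14.5 replicate 2,3,4, E15.5 replicate 1 and E15.5 replicate 2,3,4, which is kept for every series of 4 values below. Hoxc4 stood at 131 and 57.0 CPM in the rich patches of the E15.5 areas against 19.4 and 18.4 in their remaining epidermis spots, and Hoxa10 at 9.87 and 69.4 against 0 and 4.50. Both genes had entered the choice of patches, so their excess there follows from it. Between the E15.5 areas, the rich patches differed in which of these genes was high.

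Hoxd8, which is not among the 9 genes, was higher in the epidermis spots of every area, also outside the rich patches. Hoxd8 was at 127, 161, 134 and 137 CPM against 12.9, 20, 23.0 and 25.7 in the other spots, and at 113, 161, 86.7 and 167 CPM in the epidermis spots outside the rich patches. Of 39 Hox genes in the files, 8 had at least 500 UMIs in the series, and 2 of these 8 are among the 9 genes. All 8 were over 2-fold higher in epidermis than in other spots in 4 of 4 areas, beside 2.98% of all genes. The 500 UMIs include those of the epidermis spots, so a gene high there passes this limit more easily. Nothing is read from the count. The labels name all tissue as whole head, so whether the rich patches are skin of the head or of another part of the embryo cannot be told apart.

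The 5 genes of the score were high by construction, and their levels are a description. Krt10 was at 2353, 1765, 2416 and 2832 CPM in epidermis spots and at 60.1, 135, 118 and 157 CPM in the other spots. Krt1 was at 2070, 909, 1138 and 1274 CPM and Krtdap at 1533, 956, 1611 and 2171 CPM. Krt1 was highest in E14.5 replicate 1, whereas Krtdap was highest in E15.5 replicate 2,3,4, so the genes did not move together from area to area. A single spot of E14.5 replicate 1 stood at 15026 CPM for Krt1, and without it, a setting chosen after seeing the data, that area was at 1294 CPM for Krt1 and 1470 CPM for Krt10. In these sums, fewer cells of a type and less RNA per cell cannot be told apart.

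Dmkn was at 576, 305, 489 and 582 CPM. Lor, the gene of the most differentiated cells among the 5, was at 58.6, 124, 294 and 399 CPM from 6, 179, 1687 and 1942 UMIs, and its E14.5 and E15.5 areas did not overlap. Because Lor and Krt10 had entered the choice of spots, no stage difference is read from their levels or ratios here. For each 100 UMIs of Krt10, the epidermis spots held 2.49, 7.04, 12.2 and 14.1 UMIs of Lor. In E14.5 replicate 1 the spot richest in Krt1 held 99 of the 241 UMIs of Krt10, and without it the ratio was 4.23. In the epidermis spots outside the patches rich in Hox genes, the ratio was 1.19, 7.04, 3.54 and 9.83, and the stages overlapped. The value of 1.19 rests on 2 UMIs of Lor and 168 of Krt10, 99 of them in that spot.

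Lor had at least 1 UMI in 35.7%, 82.5%, 95.4% and 97.1% of the epidermis spots, whose median depth was 6748, 30968, 50654 and 33925 UMIs. After each spot had been thinned to 2000 UMIs, the shares were 28.6%, 25.0%, 30.3% and 42.3% of the epidermis spots against 1.42%, 2.23%, 2.96% and 2.32% of the other spots. The thinned share was highest in E15.5 replicate 2,3,4, and E15.5 replicate 1 lay close to the E14.5 areas.

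Levels of these genes were lower in spots outside the choice. Such spots had scored below the limit on these same genes, so the values are a description. In the 317 spots that touched an epidermis spot, Krt10 was at 352, 614, 520 and 609 CPM and Lor at 23.5, 41.4, 56.6 and 55.0 CPM. The 300 spots with the highest mean of Krt5, Krt14, Krt15 and Trp63 among spots that were not epidermis spots are termed here basal keratin spots outside the epidermis. In them the 5 genes summed to 507, 551, 567 and 561 CPM, against 6590, 4060, 5948 and 7258 CPM in the epidermis spots.

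**Figure D2:**
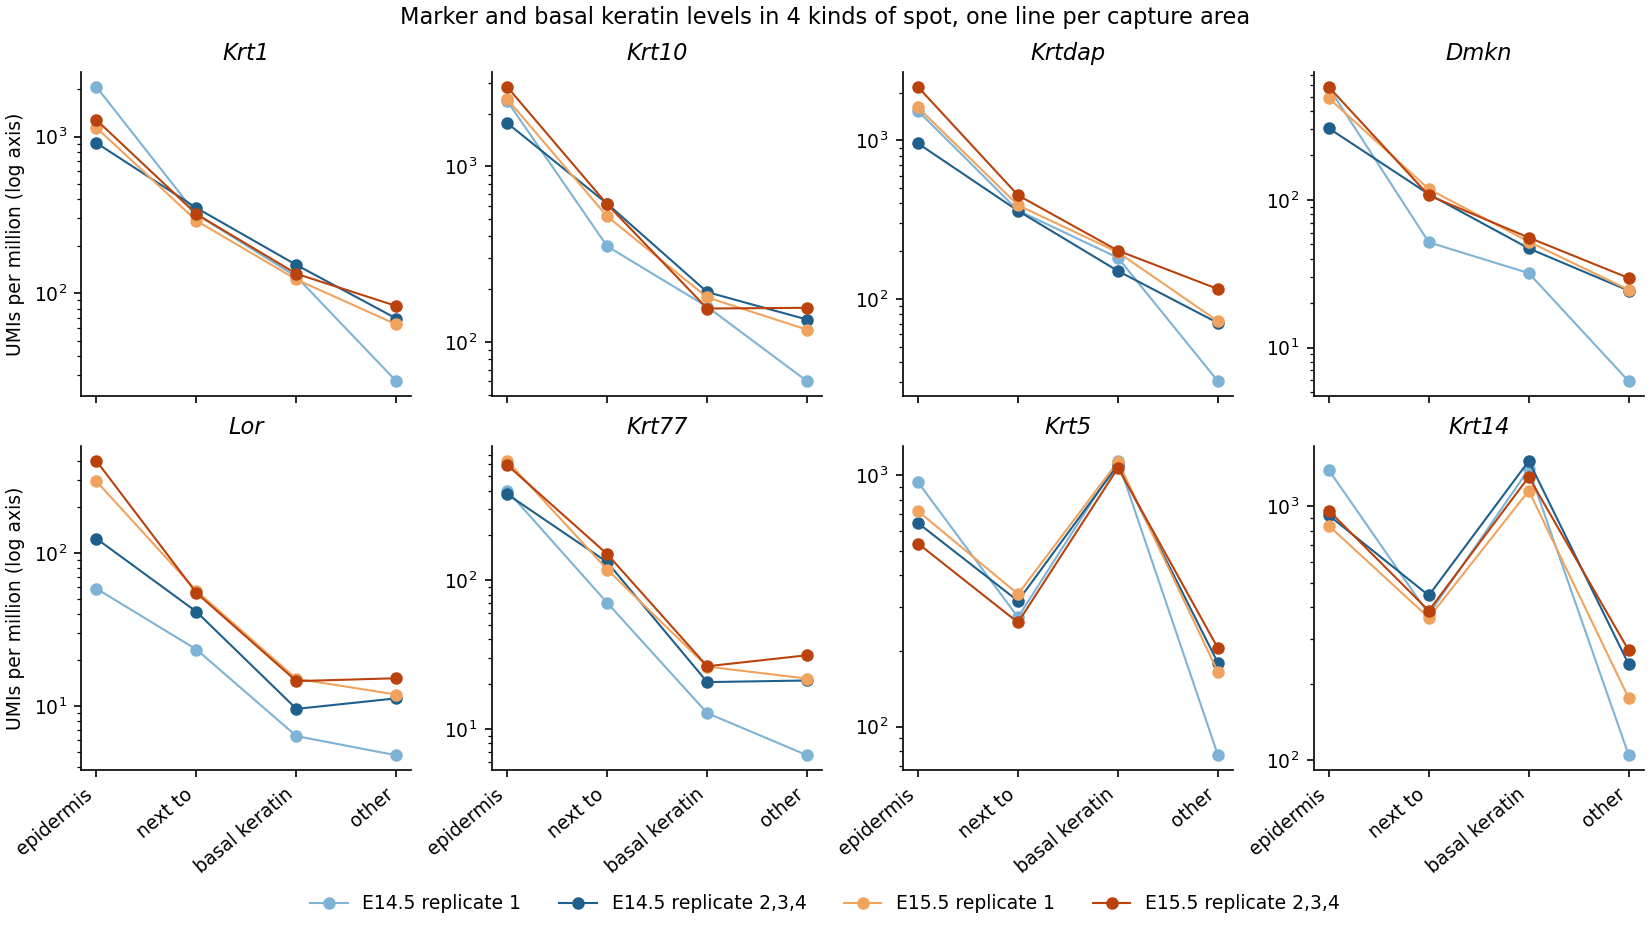
Level in CPM, on a log axis, of the 5 score genes, Krt77, Krt5 and Krt14 in epidermis spots, spots that touch them, basal keratin spots outside the epidermis and other spots; each line is a capture area. The score genes are highest in epidermis spots (Krt10 1765 CPM or more) and Krt10 is at 157 CPM or less in the other spots.

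The epidermis spots contained the basal layer as well. Krt14 was at 1386, 919, 837 and 960 CPM against 104, 238, 175 and 270 in the other spots, and Krt5 was at 937, 645, 719 and 535 CPM against 76.9, 179, 165 and 205. For each UMI of Krt14 there were 1.70, 1.92, 2.89 and 2.95 UMIs of Krt10, and 2.55, 1.92, 1.77 and 1.92 outside the patches rich in Hox genes, where the stages overlapped. The value of 2.55 rests on 168 UMIs of Krt10, 99 of them in 1 spot. Of 15 basal layer and basement membrane genes, 7 were over 2-fold higher in 4 of 4 areas, beside 2.98% of all genes. Among them was Col17a1, a protein of hemidesmosomes (log2 ratio 2.44 ± 1.12, SD, n = 4 areas).

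The spots also held dermal RNA. Of 11 dermal fibroblast genes, 3 were over 2-fold higher in 4 of 4 areas, beside 2.98% of all genes, and the median log2 ratio was 0.78. The list summed to 34211, 51464, 39929 and 44240 CPM in epidermis spots against 17917, 26874, 23535 and 38017 in the other spots. Neuron genes summed to 332, 618, 500 and 383 CPM against 4122, 3215, 2917 and 1624. Over 2-fold lower in 4 of 4 areas were 6 of 6 neuron genes and 5 of 6 cartilage genes, beside 5.01% of all genes. No gene of these 3 lists was at 0 in the epidermis spots. Of the other cell type lists, 0 of 8 skeletal muscle, 0 of 6 bone, 0 of 6 endothelium, 0 of 7 melanocyte, 0 of 3 erythroid and 0 of 5 lens genes passed 2-fold in 4 of 4 areas in either direction, 1 of 6 macrophage genes was higher and 1 of 6 olfactory and airway genes was lower.

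The genes that most set the epidermis spots apart, beside the 5 score genes, are given as a description, since these spots were chosen on this contrast. Among 13023 genes with at least 500 UMIs, a more than 2-fold higher level in 4 of 4 areas was found for 388 (2.98%) and a more than 2-fold lower one for 652 (5.01%), and nothing is read from these shares. Krt77, a keratin of suprabasal skin, was at 400, 378, 633 and 594 CPM against 6.64, 21.1, 21.8 and 31.3 in the other spots, a log2 ratio of 4.80 ± 0.81. Calm4, a calmodulin-like protein of differentiating keratinocytes, had a log2 ratio of 5.04 ± 1.09, and Tgm3, a transglutaminase that cross-links envelope proteins, had 4.60 ± 1.06.

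Enzymes and regulators made up much of the remainder. Pla2g2f, a secreted phospholipase of the upper epidermis, had a log2 ratio of 4.64, Lipm, an epidermal lipase, 4.88 ± 1.71 and Endou, an endonuclease, 4.61 ± 0.83. Pou2f3, a transcription factor of suprabasal keratinocytes, was at 244, 129, 151 and 148 CPM against 6.04, 9.73, 9.90 and 10.1. The transcription factors Cebpa, Zfp750 and Irx2 had log2 ratios of 3.27 ± 0.47, 3.20 ± 0.73 and 3.42 ± 0.76. Further genes that the rule named, Fam25c, Lypd3, Rdh12, Ppl, Fgfbp1, S100a14, Apoc1, Dsg1b and Fzd10, had log2 ratios from 2.99 to 4.88.

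Across single spots, the genes most like the score included Krt77, Calm4, Cxcl14, Pla2g2f, Fam25c, Endou, Gltp, Ppl and Pou2f3. Pearson's r across the spots of an area, averaged over the 4 areas, was 0.77 for Krt77, 0.68 for Cxcl14, a chemokine of epithelia, and 0.64 for Pou2f3. It was 0.63 to 0.91 for the 5 score genes themselves. The points are 859 to 2104 spots that share a library and differ in depth, so these values are a description.

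Against the basal keratin spots outside the epidermis, the leading genes were Krt77, Tgm3, Pla2g2f, Endou, Calm4, Fam25c, Pou2f3, Rdh12, Cma1 and Tpsb2. Cma1 and Tpsb2 encode proteases of mast cells, a resident cell of the dermis. Cma1 was at 517, 765, 479 and 690 CPM in epidermis spots, at 741, 729, 538 and 814 in the spots that touched them and at 46.3, 84.2, 101 and 155 in the other spots. It was thus as high beside the epidermis spots as in them, unlike Krt77, which was at 70.4, 132, 118 and 150 CPM beside them.

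Of 37 cornified envelope and granular layer genes, 36 were in the files and 21 had at least 500 UMIs in the series. Of these, 19 were over 2-fold higher in epidermis spots in 4 of 4 areas, and the median log2 ratio was 3.90, against 0.00 over all genes. Lgals7, a galectin of stratified epithelia, was at 1094, 369, 870 and 621 CPM, and Sprr1b, a small proline-rich envelope precursor, at 39.1, 16.7, 43.8 and 82.7 CPM. Of 13 measured genes in the chromosome 3 epidermal differentiation region, a list added after the data had been seen, 6 were over 2-fold higher. The 6 include Lor, a score gene that was high by construction. Low counts of 4 genes of the cornified layers are given as examples chosen after their values were seen. Flg, the precursor of filaggrin, had 1 UMI over all 300 epidermis spots, Krt2 had 2 and Rptn had 1, and involucrin (Ivl) had 0, 1, 12 and 20 UMIs.

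Of 10 lipid barrier genes, 7 were over 2-fold higher. Abca12, which loads lipids into lamellar granules, was at 48.8, 47.9, 62.6 and 64.8 CPM against 0.929, 2.80, 2.89 and 2.92, and Elovl4, which elongates very long chain fatty acids, was at 244, 137, 196 and 166 against 69.2, 53.2, 53.1 and 33.4. Of 11 desmosome and adhesion genes, 7 were higher, with Dsp, which ties desmosomes to keratin filaments, at 732, 425, 485 and 620 CPM against 44.2, 111, 75.3 and 143. Of 10 tight junction genes, Cldn1 and Cldn4 were over 2-fold higher and Cldn7 over 2-fold lower in 4 of 4 areas. Of 6 genes for proteases and inhibitors of desquamation, 2 were higher.

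Of 29 measured epidermal transcription factors, 15 were over 2-fold higher in 4 of 4 areas. Trp63, the regulator of epithelial stratification, was at 303, 140, 174 and 142 CPM against 24.2, 33.7, 38.9 and 44.6. Grhl3, which acts in barrier formation, was at 58.6, 67.3, 135 and 87.6 against 4.85, 10.9, 14.8 and 13.0, and Ovol1, a repressor expressed as keratinocytes leave the basal layer, was at 68.3, 55.5, 96.4 and 59.4 against 3.45, 7.31, 7.61 and 7.54. Klf4 had a smaller log2 ratio of 1.18 ± 0.22. Of 8 immune and wound genes of keratinocytes, 6 were higher, among them Il1rn, the interleukin 1 receptor antagonist, with a log2 ratio of 3.35 ± 0.46.

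Of 11 Notch pathway genes, 1, Jag1, was over 2-fold higher in 4 of 4 areas, beside 2.98% of all genes, and Notch1 was at 273, 296, 295 and 276 CPM against 156, 175, 170 and 148. None of 7 genes of the EGF receptor pathway and none of 13 cell cycle genes was over 2-fold higher or lower in 4 of 4 areas. Of 13 hair placode genes, 6 were higher, among them Edar, Wnt10b and Dkk4, and 2, Lhx2 and Sox9, were lower.

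Periderm and oral genes were mixed. Of 5 measured oral and tongue genes, 1 was over 2-fold higher and 2 over 2-fold lower in 4 of 4 areas, and Krt36 and Krt24 of this list were at 0 in the epidermis spots. Of 9 periderm genes, 3 were over 2-fold higher in 4 of 4 areas. Krt4, a keratin of periderm and oral mucosa, was at 137, 221, 810 and 324 CPM in epidermis spots. Krt13, its partner in oral mucosa, was at 0, 83.3, 15.2 and 14.2 CPM there and at 92.5, 323, 157 and 331 CPM in the basal keratin spots outside the epidermis. In E14.5 replicate 2,3,4, 1 spot close to the score limit held 86 of the 120 Krt13 UMIs of the epidermis spots, and without it, again chosen after seeing the data, the area was at 24.0 CPM.

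**Figure D3:**
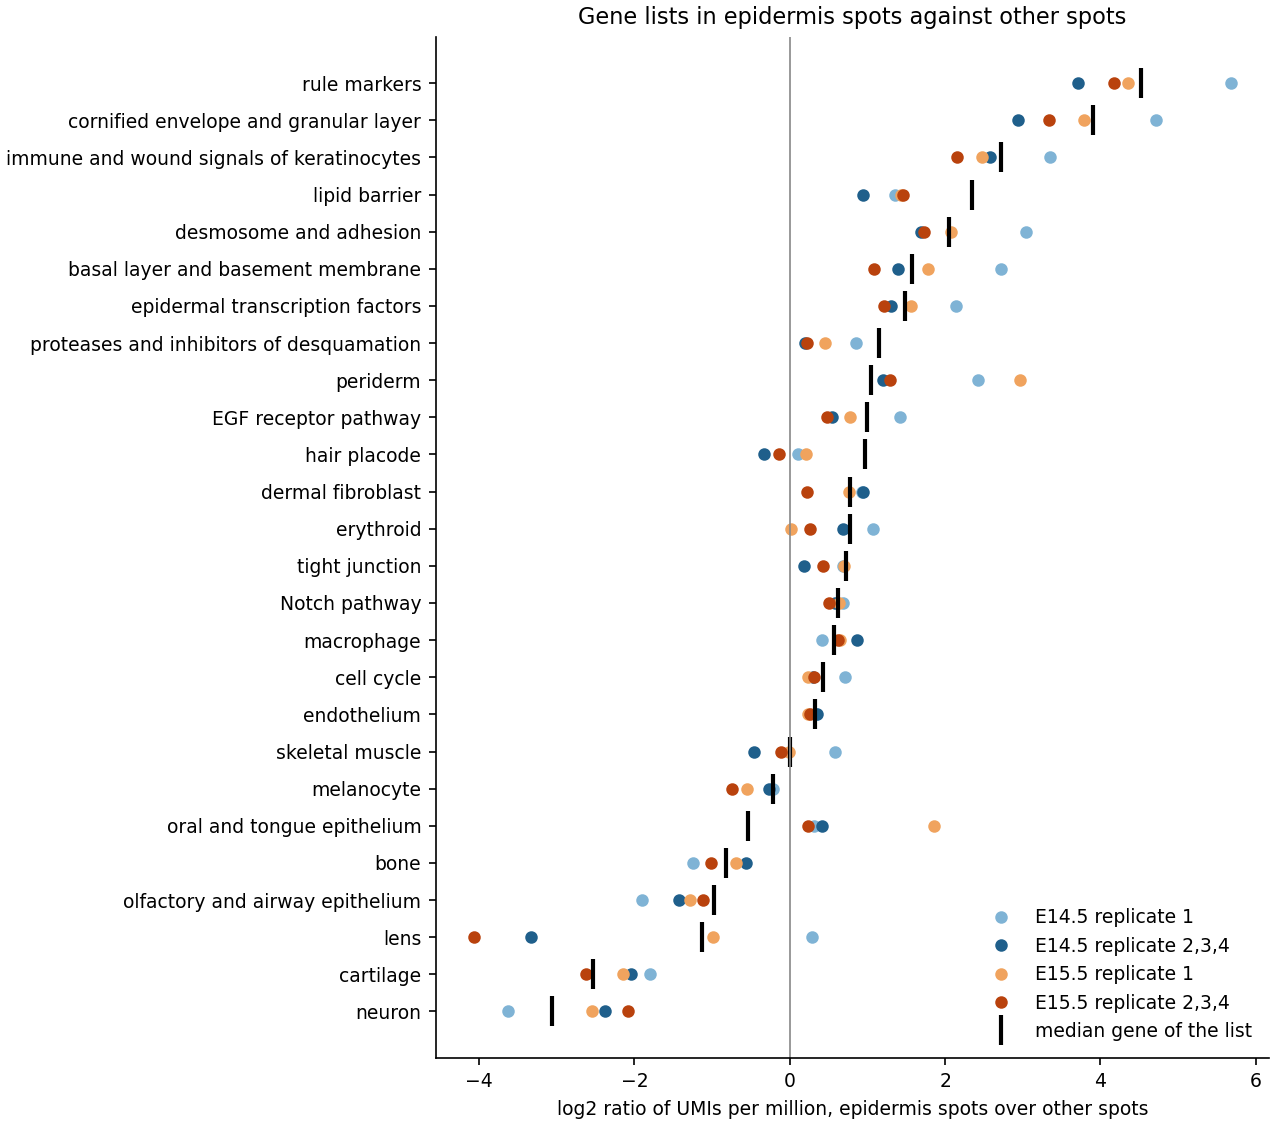
Log2 ratio of CPM in epidermis spots over other spots for the 5 score genes and the lists of skin and cell type genes, without the lists of Hox genes and of the chromosome 3 region; points are the ratio of the summed list in each capture area and black bars the median over its genes with at least 500 UMIs. Cornified envelope genes (median 3.90) stand highest of the plotted lists after the 5 score genes, and neuron genes (median -3.06) lowest.

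The design compared the epidermis before and after palate fusion. Epidermis spots were 1.63% and 1.90% of all spots at E14.5 and 11.03% and 7.03% at E15.5, that is 1.77 ± 0.192% against 9.03 ± 2.83% (SD, n = 2 areas each), a difference of 7.26 percentage points without overlap. Without the patches rich in Hox genes the shares were 0.815%, 1.90%, 1.82% and 4.10%, the stages overlapped and the difference was 1.60 points. Here the spots of the rich patches stayed in the denominator. The overlap rests on 1.90% against 1.82%, and the order of these shares depends on that choice. The tissue that a section happened to include and the stage cannot be told apart.

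**Figure D4:**
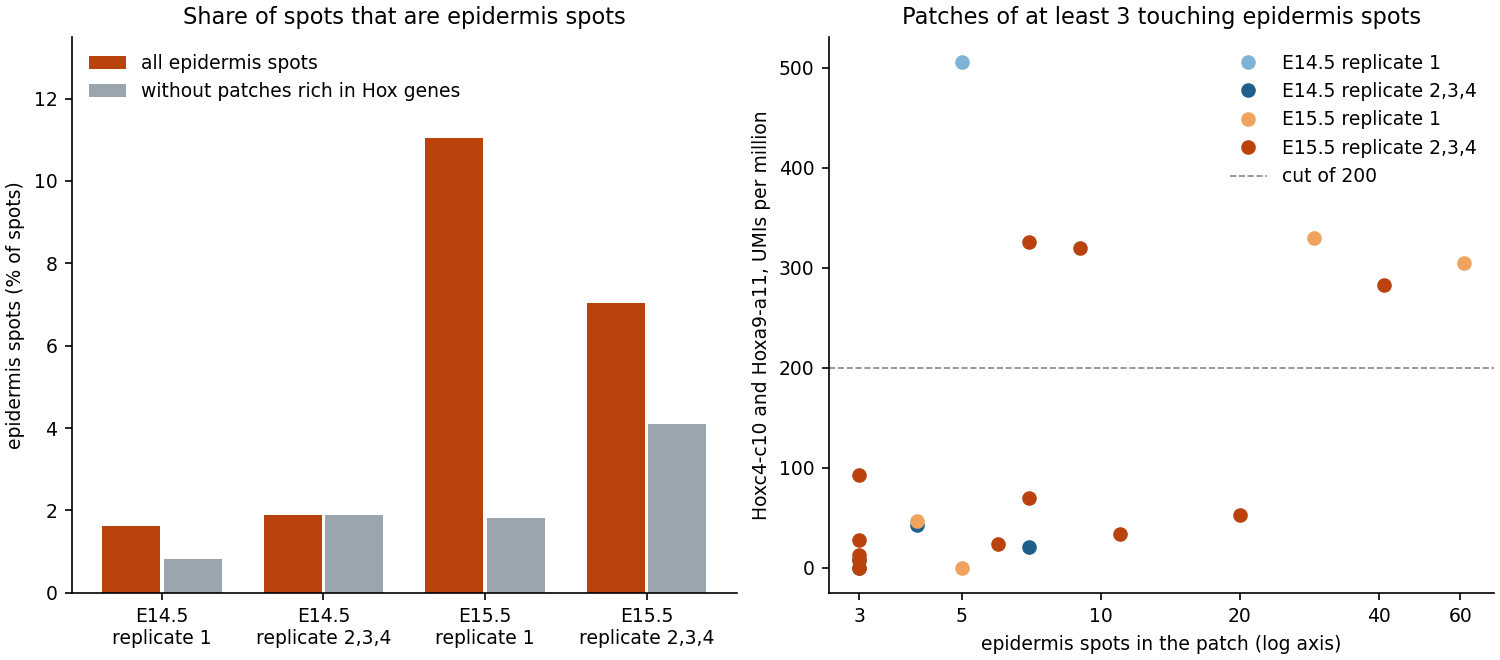
Left, epidermis spots as a percentage of all spots with at least 2000 UMIs in each capture area. Bars are given with and without patches rich in Hox genes, whose spots stay in the denominator. Right, summed CPM of 9 Hox genes against the number of epidermis spots for each patch of at least 3 spots. A dashed line marks 200 CPM. The E15.5 bars fall from 11.03% and 7.03% to 1.82% and 4.10%, and the patches above the line lie at 283 to 506 CPM.

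Within the epidermis spots, 2 of 12103 genes (0.0165%) passed a threshold of 0.1 on the adjusted p (edgeR quasi-likelihood, Benjamini-Hochberg, 2 areas against 2), and 408 had an unadjusted p under 0.05. Arhgef25, a guanine nucleotide exchange factor, was lower at E15.5, at 127 and 201 against 38.2 and 12.8 CPM (log2 fold change -2.85, SE 0.38, adjusted p = 0.0039). It was also lower in the other spots, at 125 and 157 against 46.8 and 17.1 CPM. Tmem134 was at 107 and 109 against 51.1 and 26.3 CPM in epidermis spots and at 63.9 and 63.8 against 32.9 and 21.3 CPM in the other spots, and did not pass (adjusted p = 0.45). Arhgef25 did not pass without E14.5 replicate 1 (adjusted p = 0.27), E14.5 replicate 2,3,4 (0.56), E15.5 replicate 2,3,4 (0.73) or the patches rich in Hox genes (0.24). Its log2 fold change stayed negative in 20 of 20 alternatives, from -3.76 to -1.97. No gene passed without E14.5 replicate 2,3,4, and 6 genes passed without E15.5 replicate 1.

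Ckm, the creatine kinase of muscle, was higher at E15.5, at 58.6 and 39.6 against 171 and 223 CPM (log2 fold change 2.19, SE 0.33, adjusted p = 0.0097). Of 8 skeletal muscle genes, 7 had both E15.5 areas above both E14.5 areas, beside 17.6% of all genes, and in epidermis spots the list summed to 2099, 2731, 4394 and 4629 CPM. In the E15.5 areas Ckm was at 188 and 331 CPM in the patches rich in Hox genes and at 46.3 and 117 CPM in the remaining epidermis spots. Ckm did not pass without E14.5 replicate 1 (adjusted p = 0.17), E14.5 replicate 2,3,4 (0.54) or E15.5 replicate 2,3,4 (1.0). Without these patches it did not pass either (log2 fold change 1.17, adjusted p = 1.0), 0 of 8 muscle genes were free of overlap, and 0 of 10500 genes passed in edgeR, with 52 at an unadjusted p under 0.05.

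The lists of differentiation genes were counted between stages in the same way, and no member passed the test. Of 23 tested cornified envelope and granular layer genes, 10 (43.5%) had both E15.5 areas above both E14.5 areas and 0 had both below, beside 17.6% and 12.6% of all genes, and their median log2 fold change was 0.65. The summed list, at 2919, 1882, 3284 and 2731 CPM, overlapped between stages. Of 13 lipid barrier genes, 8 were above and 0 below, and of 15 basal layer genes, 0 were above and 2 below. Without the patches rich in Hox genes, 4 cornified envelope genes were above and 3 below, and 1 lipid barrier gene was above and 1 below, beside 17.9% of all genes above. In the E15.5 areas the cornified list was 1.45 and 2.57 times as high in the rich patches as in the remaining epidermis spots, and the skeletal muscle list 2.56 and 1.70 times.

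Hrnr, which encodes hornerin of the cornified layer, was at 9.76 and 12.5 against 33.1 and 62.5 CPM in epidermis spots, from 1, 18, 190 and 304 UMIs (log2 fold change 1.92, SE 0.47, adjusted p = 0.71). Sprr1b was at 39.1 and 16.7 against 43.8 and 82.7 CPM (log2 fold change 1.69, SE 0.44, adjusted p = 0.82). Ly6g6c, a surface protein of the Ly6 family, was at 39.1 and 37.5 against 84.7 and 101 CPM (log2 fold change 1.26, SE 0.32, adjusted p = 0.76). Hrnr, Sprr1b and Ly6g6c had 1, 4 and 4 UMIs in E14.5 replicate 1, and Hrnr passed where no filter on low counts was used (adjusted p = 0.012). Without the patches rich in Hox genes the log2 fold changes of the 3 genes were 0.60, 0.55 and 0.42.

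The other genes named by their order of p among those without overlap were Myh8, Arhgap36, Hoxa9, Mybpc1, Krt4 and Lsm6, with positive fold changes, and Mcpt4, Pou3f4, Six6, Hoxd1, Hspa12a, Pax6, Hoxc13 and Radil, with negative ones. Their adjusted p in edgeR lay between 0.56 and 1.0, so none passed. Myh8 and Mybpc1 are muscle genes, Mcpt4 encodes a mast cell protease, and Six6 and Pax6 are regulators of eye development. Hoxa9 rested on 0, 1, 61 and 98 UMIs.

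**Figure D5:**
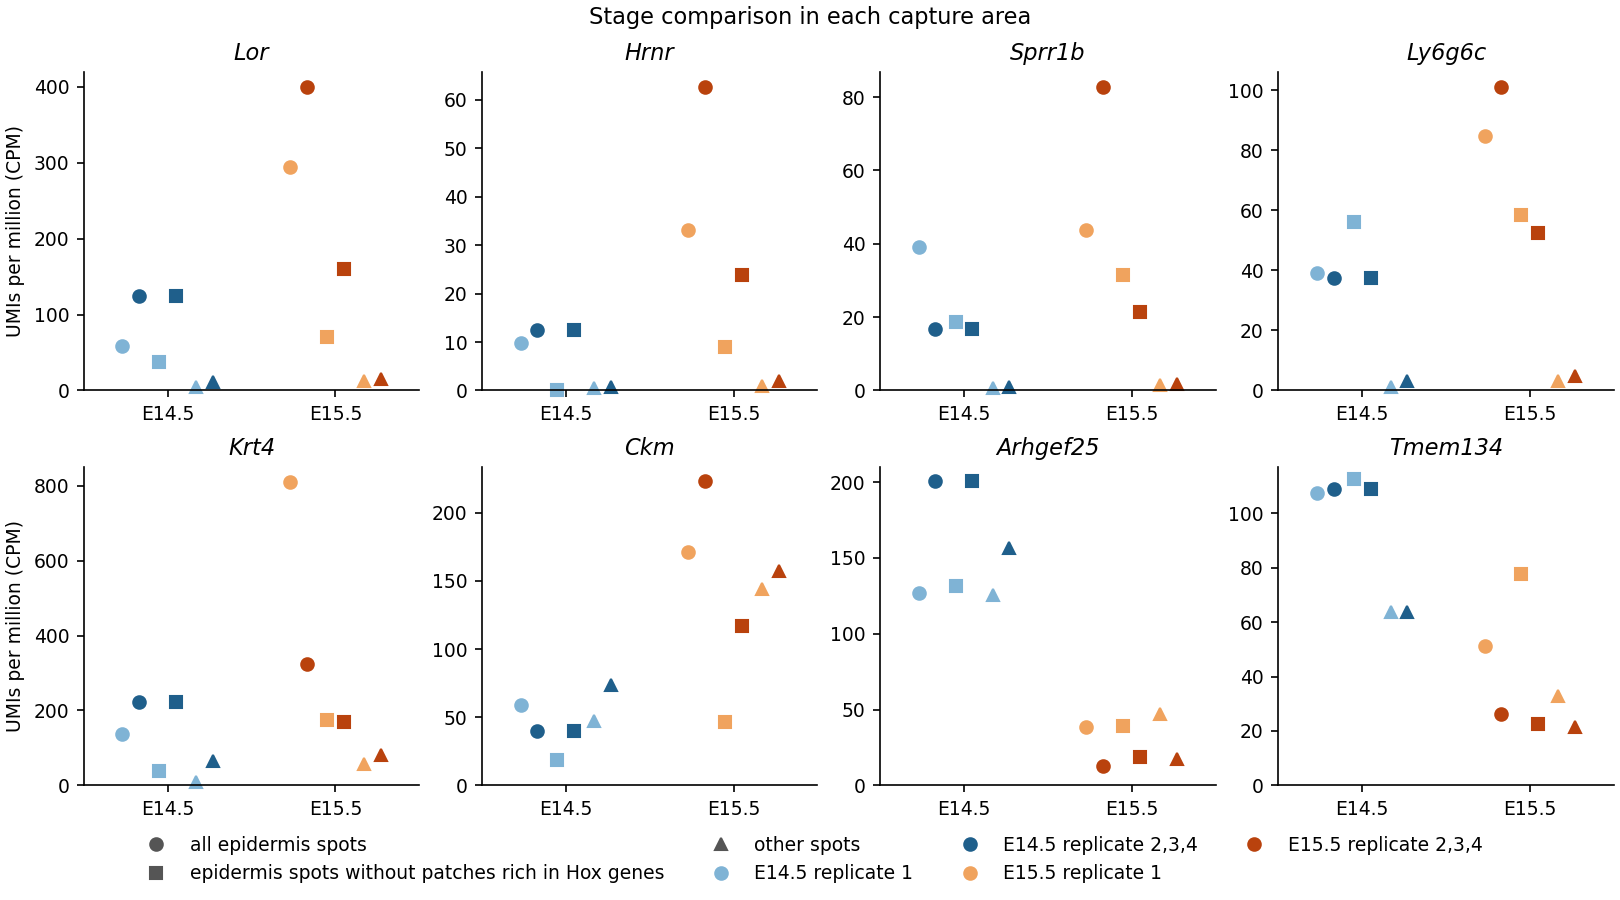
Level in CPM of 8 genes at E14.5 and E15.5, with circles for all epidermis spots, squares for epidermis spots without patches rich in Hox genes and triangles for other spots; colours mark the capture areas. The circles of Lor lie at 58.6 and 124 against 294 and 399 CPM. Its squares lie at 37.5 (from 2 UMIs) and 124 against 70.2 and 160 CPM. Lor is a score gene, so no stage difference is read from its circles and squares. Arhgef25 is lower at E15.5 by each symbol.

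A choice of spots that did not use the 5 score genes allowed them to be tested. The 300 spots with the highest mean of Krt5, Krt14, Krt15 and Trp63, termed here basal keratin spots, included 85 epidermis spots, namely 9 of 25 and 9 of 106 at E14.5 and 36 of 63 and 31 of 106 at E15.5. In edgeR 2 of 12612 genes (0.0159%) passed, and 391 had an unadjusted p under 0.05. Lor was at 14.2 and 12.7 against 256 and 151 CPM (log2 fold change 3.94, SE 0.37, adjusted p = 0.0034), from 4, 63, 1135 and 855 UMIs. The E15.5 areas lay well above the E14.5 areas, and Lor passed when each area was left out in turn.

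Krt10, Krtdap and Dmkn were higher in both E15.5 areas of the basal keratin spots, with log2 fold changes of 1.51, 1.56 and 1.74, and the areas of Krt1 overlapped (0.77). None of these passed in edgeR (adjusted p = 1.0, 0.69, 0.62 and 1.0). Without the patches rich in Hox genes all 4 turned direction, to -0.66, -0.089, -0.057 and -0.73, and with the epidermis spots left out Krt10 turned to -0.17 and Krt1 to -0.22. Of 22 cornified envelope genes, 13 had both E15.5 areas above both E14.5 areas, beside 16.1% of all genes, and 0 passed. With the epidermis spots left out, Lor was at 6.38 and 9.60 against 15.1 and 14.6 CPM (log2 fold change 0.62). Because those spots had been chosen in part on Lor, this removed spots high in Lor by construction, and nothing is read from the lower value or from the call lost there. Without the patches rich in Hox genes, the log2 fold change of Lor was 0.53 (adjusted p = 1.0).

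The other gene that passed in the basal keratin spots was Crybb1, a crystallin of the lens, at 7.09 and 30.2 against 167 and 173 CPM (log2 fold change 2.68, SE 0.35, adjusted p = 0.051). All 4 tested lens genes, of 5 listed, had both E15.5 areas above both E14.5 areas there, beside 16.1% of all genes. In the epidermis spots Crybb1 was at 0, 63.9, 134 and 62.1 CPM, below the 1.92, 774, 291 and 1078 CPM of the other spots in each area.

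Over all 5901 spots, 0 of 15598 genes (0%) passed in edgeR, with 979 at an unadjusted p under 0.05 and 33 called by DESeq2. The log2 fold changes of Krt1, Krt10, Krtdap, Dmkn and Lor were 1.24, 1.33, 1.73, 1.61 and 1.90, each higher in both E15.5 areas with an adjusted p of 0.75. DESeq2 called Lor (adjusted p = 0.012). Without E15.5 replicate 1, 284 genes passed in edgeR, Lor among them (adjusted p = 0.034). In a model of region by stage with the capture area as a block, 2 of 14091 genes (0.0142%) differed in stage change between epidermis and other spots, Nkx2-1 and Ttr.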

How the data were processed

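Visium capture areas of formalin-fixed, paraffin-embedded mouse heads were read as UMI count matrices of 19465 genes. The deposited counts were made by the authors with Space Ranger, whose version per the file headers was 1.3.1 where the area held 1 section and 2.0.0 where it held 3, and the submitters' processing notes name mm10. Each replicate 1 area was thus processed with another version than the replicate 2,3,4 area of its stage. The matrices held filtered barcodes, of which those flagged as tissue were used, and no normalization had been applied.

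Spots with at least 2000 UMIs were kept (5901 of 6357), no doublet caller was used, and groups were taken from the labels. UMIs were summed per capture area and set of spots, and CPM is the share of a sum times 1000000. Ratios had 0.5 UMIs added to each sum. Stage was tested with edgeR 4.0.16 (quasi-likelihood F test, TMM, filterByExpr, Benjamini-Hochberg over all genes tested, threshold 0.1, the false discovery rate in the study's methods) in R 4.3.3. DESeq2 1.42.0 was an alternative, and the other alternatives were other limits on spots, filters, scalings, a replicate block and leaving out each area. Leaving out patches rich in Hox genes, and thinning the sums to the smallest, were added after the data had been seen. The fits were tested on simulated data.

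Total tissue UMIs were 15438992 to 109127953 per area, and intervals for single low genes are wide. Members and gene lists were chosen with earlier results of these data known. Genes were named by rule: the 20 with the highest lowest-area ratio to other spots, the 10 with the highest ratio to the basal keratin spots, the 10 most like the score and, per direction, the 10 with the smallest p and no overlap between stages, and members of the lists as examples. 1 gene that the rule named is not reported here.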

Additional observations from a re-analysis of the deposited data

Results flagged for a closer look

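Nkx2-1 and Ttr had stage changes in the epidermis spots that differed from those in the other spots in the region by stage model (edgeR quasi-likelihood, Benjamini-Hochberg). For Nkx2-1, a regulator of forebrain and thyroid, the difference of log2 fold changes was 7.099 (SE 1.10, adjusted p = 0.035), with epidermis spots at 0, 0.694, 0.174 and 10.3 CPM and other spots at 9.76, 112, 2.95 and 8.03 CPM. For Ttr, the transthyretin of choroid plexus, it was 5.526 (SE 0.89, adjusted p = 0.035), with epidermis spots at 0, 85.4, 1.57 and 831 CPM and other spots at 6.70, 1985, 8.93 and 167 CPM. Both were high in the epidermis spots of E15.5 replicate 2,3,4 and, among other spots, in E14.5 replicate 2,3,4. Neither passed when any capture area other than E15.5 replicate 1 was left out, nor in DESeq2.

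The tissue spots under 2000 UMIs, which were left out except where no minimum of UMIs was set, held UMIs of the 5 score genes above the level of the other spots. There were 273 such UMIs in 247 spots of E14.5 replicate 1 (1010 CPM against 129 in the other spots), 81 in 206 spots of E14.5 replicate 2,3,4 (427 against 310 CPM) and 4 in 2 spots of E15.5 replicate 2,3,4. In E14.5 replicate 1, 13 of these spots had UMIs of at least 3 of the 5 genes, beside its 14 epidermis spots.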

How the results depend on the processing

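The 2 genes called between stages in the epidermis spots became 23 without a filter, 1 with at least 10 UMIs in every area, 6 with a replicate block, 0 with 75 spots of each area, 0 with spots thinned for the score, 1 with a score of Krt10, Krtdap and Dmkn, 0 without patches rich in Hox genes and 0 with the sums thinned to the smallest, and 0 to 6 when an area was left out. The 2 called between epidermis and other spots became 0 in DESeq2, 6 without TMM, 1 with at least 10 UMIs in every sum, 0 with 75 spots of each area, 0 with thinned spots and 110 without the patches, and 0 to 9 when an area was left out (5 without E14.5 replicate 2,3,4). Over all spots, 0 became 33 in DESeq2, 1 without a filter, 87 with a replicate block and 0 to 284 when an area was left out. In basal keratin spots, 2 became 1 at an adjusted p under 0.05, 4 in DESeq2, 58 with a replicate block, 1 with the epidermis spots left out, 9 without the patches and 8 to 45 when an area was left out (18 without E15.5 replicate 1). The difference in the share of epidermis spots fell to 1.60 points without the patches and was 5.26 to 9.27 when an area was left out. The causes were not tested.

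Without the patches, the log2 fold changes in epidermis spots reversed to -0.024 for Krt4, 0.083 for Pou3f4, 0.26 for Six6 and 0.50 for Pax6, and in basal keratin spots to -0.73 for Krt1, -0.66 for Krt10, -0.089 for Krtdap and -0.057 for Dmkn. With the epidermis spots left out, Krt1 reversed to -0.22 and Krt10 to -0.17, and Dhrs2 reversed to 4.67 between epidermis and other spots without E14.5 replicate 2,3,4. Of 578 values of single genes under alternatives, 497 kept direction and call, 30 lost and 40 gained the call, and these 11 reversed. In basal keratin spots, leaving out the patches or the epidermis spots removed spots chosen on the score genes. Nothing is read from the reversals of these genes there.

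The labels do not say that the replicate numbers pair the areas. The correlation of their deviations from the stage means was -0.04 in epidermis spots and 0.26 over all spots. Areas with the same number also shared the count of sections and the Space Ranger version, so what the block removes cannot be told apart. A lone area of a stage was assumed to vary like the others. E14.5 replicate 1, with 102423 UMIs in 14 epidermis spots, limits the stage comparison within epidermis spots.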
